A study of Mus musculus with 2 samples.

Results

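Prostaglandins are short-lived lipid signals, and the genes described here make them, break them down or sense prostaglandin E2. The 10 genes were taken by their names, with earlier results of these data known: the cyclooxygenase genes Ptgs1 and Ptgs2, the synthase genes Ptges, Ptges2 and Ptgis, the degrading enzyme gene Hpgd, and the prostaglandin E receptor genes Ptger1, Ptger2, Ptger3 and Ptger4. All 10 were found among the 21983 genes of the count table. All 10 had at least 20 counts summed over the libraries, the minimum used to rank ratios or call a gene. Their expression was measured by RNA sequencing of total RNA from primary chondrocytes, cartilage cells cultured from wild-type mice in medium with 10% serum. The control culture received phosphate-buffered saline (PBS) and the other received recombinant mouse Sparcl1, a secreted matricellular protein, at 50 ng/ml, each for 3 days. The labels give neither the age of the mice nor whether RNA was pooled.

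Cyclooxygenases turn arachidonic acid into prostaglandin H2. Ptgs1 encodes the form most cells make steadily, and Ptgs2 the form that cytokines such as interleukin 1 induce in chondrocytes. Prostaglandin E2, made from prostaglandin H2 by E synthases, is a main inflammatory prostaglandin of joints. It signals through 4 receptors, of which those encoded by Ptger2 and Ptger4 raise cyclic AMP, that of Ptger3 mainly lowers it, and that of Ptger1 acts through calcium. The product of Hpgd begins its breakdown.

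There was 1 library per group, 29858851 gene counts in the PBS library and 26871933 in the Sparcl1-treated library, so no difference below has a replicate check and no test across cultures was made. Levels are counts per 1000000 (CPM) after scaling of the libraries, and differences are log2 ratios of CPM, Sparcl1-treated over PBS, with a 95% interval that covers counting error only. All 9 chondrocyte markers were detected, at levels from Col2a1 at 8629 and 7332 CPM down to Matn3 at 2.41 and 1.43 CPM. Col1a1, listed as a fibroblast marker, stood at 8206 and 6309 CPM. All 11 macrophage markers were detected as well, with Lyz2, their most abundant, at 1327 and 1640 CPM, so the prostaglandin transcripts need not all come from chondrocytes.

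Most genes of prostaglandin E2 synthesis had slightly higher values in the Sparcl1-treated library, and the degrading enzyme gene had a lower one. Ptgs1, Ptgs2, Ptges and Ptges2 had log2 ratios of 0.34, 0.41, 0.26 and 0.41, while Ptgis stood at -0.01 and Hpgd at -0.69. A gene was called higher or lower when it differed by 2-fold or more and its interval left out 0, and by this 2-fold rule 1 of the 10 genes was higher and none was lower. The higher gene was the receptor gene Ptger2, with 25 and 50 counts. Over the 13317 genes that met the count minimum, 0.954% were higher and 0.946% lower by the same rule. Among the 1407 genes with 20 to 99 summed counts, the range in which Ptger2 lies, 7.6% were higher and 6.25% lower. The median log2 ratio of the 10 genes was 0.30, against 0.00 over all genes tested. The ratio lay above 1 for 7 of the 10, against 49.6% of all genes tested. With library totals as library sizes it lay above 1 for 8, since Ptgis then had a log2 ratio of 0.03.

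**Figure D1:**
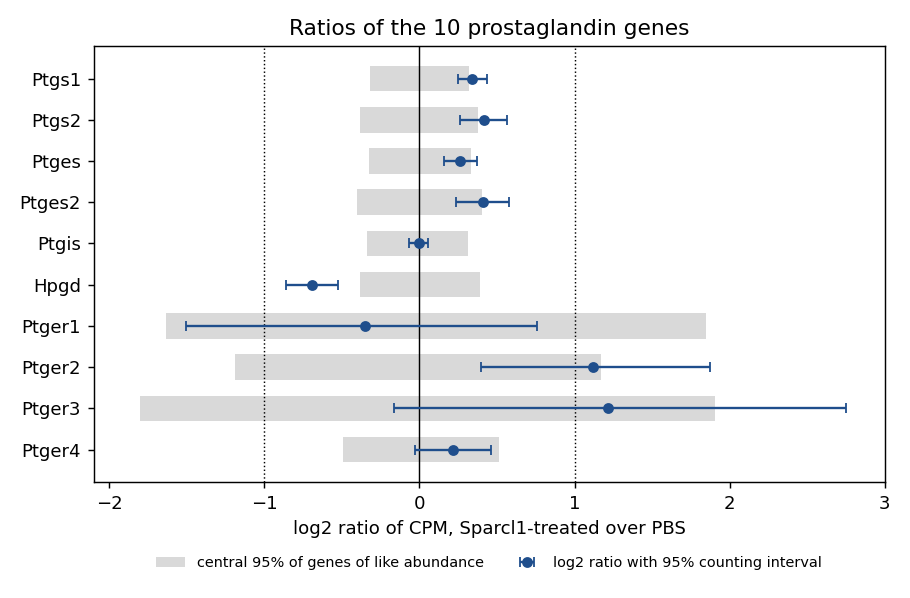
Log2 ratios of CPM, Sparcl1-treated over PBS, for the 10 genes (points) with 95% counting intervals (bars). Grey bars span the central 95% of ratios of genes whose summed counts lie within a factor of 2 of that gene's, and dotted lines mark log2 ratios of -1 and 1. Hpgd (-0.69) lies well below its grey bar, Ptgs1, Ptgs2 and Ptges2 lie just above theirs, and Ptger2 (1.12) lies inside.

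Counting intervals excluded 0 for 6 of the 10 genes, 5 above and 1 below. This is a weak criterion in libraries of this depth: among all genes tested, 20.1% had an interval above 0 and 21.6% one below. Both shares pool genes of all depths, and counting intervals are narrower at higher counts. Of the 10 genes, 7 had at least 500 summed counts, with 4 intervals above 0 and 1, that of Hpgd, below. The share of all genes at that depth is not given. A second description sets each gene beside genes of like abundance, those with summed counts within a factor of 2 of its own. Of the 10 genes, 3 lay above the central 95% of those ratios, 1 lay below it and 6 lay inside, where 5% of genes lie outside by construction. If cultures varied with an assumed coefficient of variation of 0.2, which 1 library per group cannot show, the widened interval would exclude 0 only for Ptger2, at 0.04 to 2.22, among the 10. Over all genes tested, 0.743% of widened intervals would lie above 0 and 0.879% below. These shares cover genes of all depths, and a share for genes with counts as few as those of Ptger2 is not given.

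Compared per kilobase of merged exons, the levels of the 10 genes spanned more than 3 orders of magnitude in the PBS library, from Ptgis at 60.3 CPM per kilobase to Ptger3 at 0.0417. Hpgd followed Ptgis at 16.7, then Ptgs1 at 14.3, Ptges at 11.6, Ptgs2 at 4.89, Ptges2 at 3.53 and Ptger4 at 1.38. The 3 rarest were Ptger2 at 0.163, Ptger1 at 0.112 and Ptger3 at 0.0417, each based on 25 counts or fewer. The counting interval of Ptger1 (0.0662 to 0.177) overlapped those of Ptger2 (0.106 to 0.241) and Ptger3 (0.0168 to 0.0860). The place of Ptger1 among these 3 receptors is therefore not fixed, while the intervals of Ptger2 and Ptger3 did not overlap. The intervals of Hpgd (15.6 to 17.9) and Ptgs1 (13.6 to 15.0) did not overlap, but their order reversed when the longest annotated transcript served as the length. In the Sparcl1-treated library Ptgis led again at 60.0 CPM per kilobase, followed by Ptgs1 at 18.2, Ptges at 13.9 and Hpgd at 10.4, so Hpgd moved from the second place to the fourth.

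**Figure D2:**
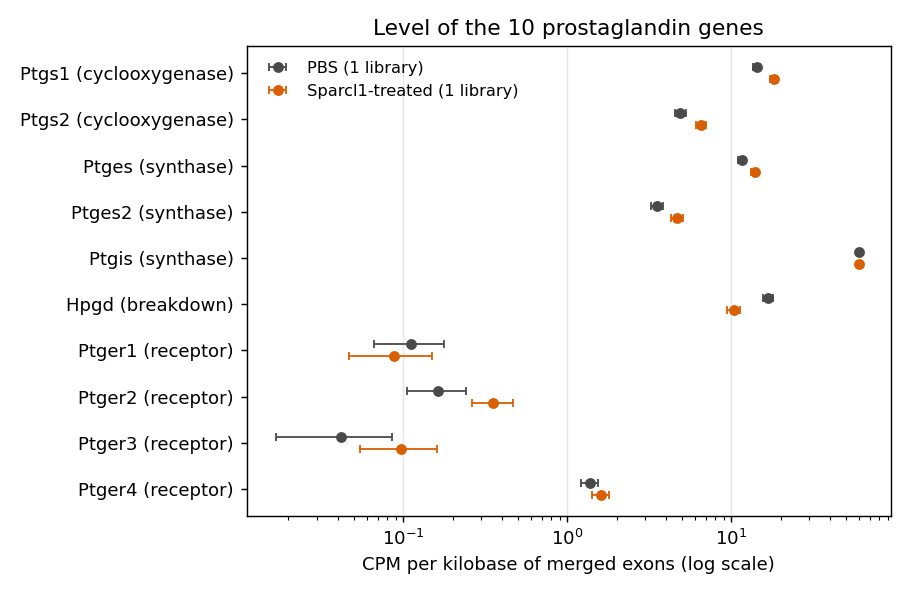
Level of each gene in CPM per kilobase of merged exons, on a log axis, in the PBS library (grey) and the Sparcl1-treated library (orange), with exact 95% counting intervals. The enzyme genes lie between 3.53 and 60.3 in both libraries, and all receptor genes lie below 2, with Ptger4 the highest of them.

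The stretch of DNA just before a gene's start is part of its promoter. For 8 of the 10 genes RefSeq (GRCm38.p6) gave such a sequence, all except Ptgis and Ptger1. The 250 bases before the RefSeq start are shown for the inducible enzyme genes Ptgs2 and Ptges, whose ratios lay on the same side. They are also shown for Hpgd, whose ratio lay farthest below 1, and for Ptger2, the gene past the rule. For Ptges the RefSeq start lies inside the span given for the gene below (30889471 to 30929863). By that span its window is within the gene, not before it. Capitals mark matches to the motifs searched, on either strand.
Ptgs2, chr1:150099781-150100030, plus strand: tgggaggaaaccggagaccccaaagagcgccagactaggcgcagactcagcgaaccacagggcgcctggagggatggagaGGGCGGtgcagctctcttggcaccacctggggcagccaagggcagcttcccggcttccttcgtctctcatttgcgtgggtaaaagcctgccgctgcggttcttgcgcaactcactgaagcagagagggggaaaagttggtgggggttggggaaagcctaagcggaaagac
Ptges, chr2:30903298-30903547, minus strand: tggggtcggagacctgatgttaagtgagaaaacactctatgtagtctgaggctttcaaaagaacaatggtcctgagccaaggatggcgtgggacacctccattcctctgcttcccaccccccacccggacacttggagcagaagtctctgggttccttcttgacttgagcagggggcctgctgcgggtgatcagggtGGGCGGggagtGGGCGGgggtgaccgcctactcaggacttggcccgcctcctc
Hpgd, chr8:56294302-56294551, plus strand: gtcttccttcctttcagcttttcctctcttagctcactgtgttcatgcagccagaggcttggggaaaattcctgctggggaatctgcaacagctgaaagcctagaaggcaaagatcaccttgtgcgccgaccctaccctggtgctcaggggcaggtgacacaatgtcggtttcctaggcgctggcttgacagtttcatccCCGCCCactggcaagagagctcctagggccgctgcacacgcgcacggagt
Ptger2, chr14:44987861-44988110, plus strand: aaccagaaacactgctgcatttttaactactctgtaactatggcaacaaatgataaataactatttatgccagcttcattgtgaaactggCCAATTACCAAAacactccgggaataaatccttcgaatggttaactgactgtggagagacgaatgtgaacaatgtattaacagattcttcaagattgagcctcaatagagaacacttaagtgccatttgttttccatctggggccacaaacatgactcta
The motifs were the TATA box (TATAAA), the CCAAT box (CCAAT), the GC box (GGGCGG), the E-box (CACGTG), the cyclic AMP response element (TGACGTCA), the AP-1 site (TGANTCA), the C/EBP site (TTNNGNAAT) and the NF-κB site (by its usual consensus of 10 letters). A GC box was found in 5 of the 8 windows, those of Ptgs2, Ptges, Hpgd, Ptger3 and Ptger4, and in 32.7% of all 32851 windows of this length. Ptges held 2 GC boxes, and Ptgs2 and Hpgd 1 each. Ptger2 held no GC box, and its window had 38.0% G and C against 61.6% in Ptgs2, 59.6% in Ptges and 56.8% in Hpgd. Its CCAAT box overlaps a match to the C/EBP motif, which 33.8% and 10.2% of all windows hold. No TATA box, cyclic AMP response element, AP-1 or NF-κB match was found in any of the 8 windows, against 12.4%, 1.5%, 6.7% and 3.9% of all windows. Only exact matches to these patterns were marked, so a site that departs from its pattern is missed. These matches describe letters in the window, and RefSeq starts need not be the starts used in these cells.

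The cyclooxygenase genes had similar ratios, and the Ptgs2 share of their reads was close between the libraries. Ptgs1, on chromosome 2 (GRCm38, 36230426 to 36252272), had 1641 counts in the PBS library and 1917 in the Sparcl1-treated library, 55.6 and 70.5 CPM (log2 0.34, 0.25 to 0.44). Ptgs2, on chromosome 1 (150100031 to 150108227), had 660 and 811 counts, 22.4 and 29.8 CPM (0.41, 0.26 to 0.57). Each value was higher in the Sparcl1-treated library, by 1.27-fold for Ptgs1 and 1.33-fold for Ptgs2, short of the 2-fold size set. Of 4725 genes of abundance like that of Ptgs2, 1.84% had a higher ratio, and of 4606 like Ptgs1, 2% did. The steadily made form was the more abundant: per length Ptgs1 stood 2.93-fold above Ptgs2 in the PBS library and 2.79-fold in the other. Ptgs2 supplied 28.7% of cyclooxygenase reads in the PBS library (exact 95% interval 26.8 to 30.6%) and 29.7% in the Sparcl1-treated library (28.0 to 31.5%), and these intervals overlapped.

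The synthases that act on prostaglandin H2 did not have like ratios. Ptges encodes the inducible microsomal prostaglandin E synthase, which works mainly with the Ptgs2 product, and had 1341 and 1484 counts, 45.5 and 54.6 CPM (log2 0.26, 0.16 to 0.37). It lies on chromosome 2 at 30889471 to 30929863. Its ratio was inside the central 95% of genes of like abundance, of which 5.24% had a higher one. Ptges2, named as a membrane-associated E synthase, lies on the same chromosome at 32395896 to 32405772 and had 526 and 643 counts, 17.8 and 23.6 CPM (0.41, 0.24 to 0.58). Of genes of like abundance, 2.45% had a higher ratio. Ptges made up 71.8% (69.7 to 73.9%) and 69.8% (67.8 to 71.7%) of the reads of this pair in the PBS and Sparcl1-treated libraries, again with overlapping intervals. Ptgis encodes prostacyclin synthase, which makes the vessel-dilating prostaglandin I2, and it was the most abundant of the 10 genes. It had 4563 and 4189 counts, 154.7 and 154.0 CPM, and a log2 ratio of -0.01 (-0.07 to 0.06). That interval allows a difference of at most 0.07 in size from counting alone. Beside Ptges, its part of the reads of the pair was 77.3% (76.2 to 78.4%) in the PBS library and 73.8% (72.7 to 75.0%) in the Sparcl1-treated one, and these intervals did not overlap.

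Of the 7 genes of the set that reached 500 summed counts, the gene for prostaglandin breakdown had the log2 ratio farthest from 0. Hpgd encodes 15-hydroxyprostaglandin dehydrogenase, which inactivates prostaglandin E2, and lies on chromosome 8 at 56294585 to 56321043. It had 831 counts in the PBS library and 474 in the Sparcl1-treated library, 28.2 and 17.4 CPM (log2 -0.69, -0.86 to -0.53), a level 1.62-fold lower with Sparcl1. This falls short of the 2-fold rule. Of the 4550 genes of like abundance, 0.66% had a lower ratio, and their central 95% ran from -0.38 to 0.39. With a 1.5-fold rule Hpgd was lower, as were 2.35% of all genes tested and 0.765% of the 9809 genes with at least 500 summed counts. Ptges made up 61.7% (59.7 to 63.8%) of the reads of Ptges and Hpgd together in the PBS library and 75.8% (73.8 to 77.7%) in the Sparcl1-treated library. Per length, Ptges thus stood at 0.691 times the Hpgd level in the PBS library and at 1.34 times in the other.

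**Figure D3:**
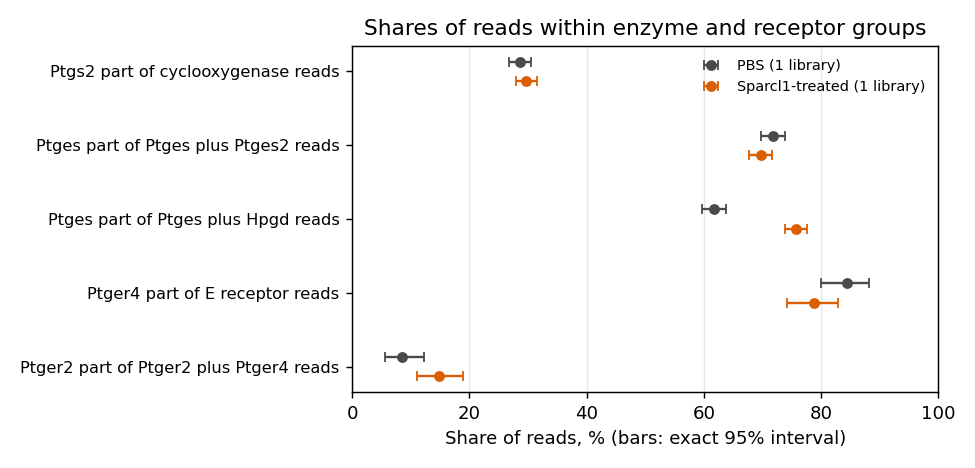
Share of reads, in percent, that 1 gene takes of a pair or group, in the PBS library (grey) and the Sparcl1-treated library (orange), with exact 95% intervals for counting error. The intervals are apart for Ptges beside Hpgd (61.7% and 75.8%) and overlap for the other 4 shares drawn. The share of Ptgis beside Ptges (77.3% and 73.8%), whose intervals are also apart, is not drawn. Overlap of separate intervals does not show that shares are alike.

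Receptor genes had lower levels per length than the enzyme genes, and Ptger4, the main one, came nearest to them, at 1.38 CPM per kilobase against 3.53 for Ptges2 in the PBS library (2.43 and 3.58 by the longest transcript). Ptger4, on chromosome 15 (5206661 to 5244187), had 270 and 289 counts, 9.15 and 10.6 CPM (log2 0.22, -0.03 to 0.46), a difference that was not detectable at this depth. It took 84.4% (79.9 to 88.2%) of the reads of the 4 receptor genes in the PBS library and 78.7% (74.2 to 82.8%) in the Sparcl1-treated library. Ptger2, on chromosome 14 (44988195 to 45003820), had 25 and 50 counts, 0.848 and 1.84 CPM (1.12, 0.40 to 1.87). It was the higher gene by the rule, at 2.17-fold, yet its ratio lay inside the central 95% of 1252 genes of like abundance (-1.19 to 1.17), of which 2.80% had a higher ratio. Ptger2 was also higher by a 1.5-fold rule, as were 2.32% of all genes tested. That share covers genes of all depths. By the 2-fold rule 0.954% of all genes tested were higher, but 7.6% of those with 20 to 99 summed counts. Its call ended with a minimum of 100 summed counts, with which 0.168% of genes were higher, and with a 3-fold rule, by which 0.33% were. Beside Ptger4, Ptger2 supplied 8.47% (5.56 to 12.3%) and 14.7% (11.1 to 19.0%) of the reads of these cyclic AMP-raising receptors, with overlapping intervals. Such overlap does not show that the shares were alike, and their difference was not tested.

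The remaining receptor genes were near the limit of detection. Ptger3, on chromosome 3 (157566892 to 157645888), had 7 and 15 counts (log2 1.22, -0.17 to 2.75), so its ratio was larger than that of Ptger2 but its interval held 0. Ptger1, on chromosome 8 (83666678 to 83672753), had 18 and 13 counts (-0.35, -1.50 to 0.76). The strand setting of the counting was not given in the sources used here, and without strand, reads of genes that overlap on opposite strands cannot be told apart. For Ptger4 15.3% of the merged exons overlap a pseudogene on the opposite strand and 1.2% overlap Ttc33, a protein-coding gene with 797 and 779 counts (log2 0.08). For Ptger2 at most 4.7% overlap any one transcript annotated opposite to it.

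Genes that supply and use the same pathway gave the surrounding picture, from lists fixed with earlier results of these data known. Arachidonic acid is freed from membranes by phospholipases, and of 14 genes listed for this step 7 had at least 20 summed counts, none past the rule in either direction, with a median log2 ratio of -0.01 (all genes tested: 0.00). Pla2g4a, the cytosolic phospholipase that feeds the cyclooxygenases, had 1285 and 1181 counts (-0.01, -0.12 to 0.11), an interval that held 0, where the cyclooxygenase genes stood at 0.34 and 0.41. The highest and lowest ratios of this list came from few counts: Pla2g4c with 11 and 17 (0.74, -0.43 to 1.98) and Pla2g2e with 24 and 13 (-0.77, -1.86 to 0.26).

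The other prostanoid synthase genes had none past the rule among 6 tested of 7, with a median of 0.09. The most abundant was Ptges3, a co-chaperone also described as a cytosolic E synthase, with 1755 and 1639 counts (log2 0.02, -0.08 to 0.12). Cbr1, a carbonyl reductase that can convert prostaglandin E2, stood highest at 0.21 (0.09 to 0.33). Hpgds, the D synthase of haematopoietic cells, stood lowest with 1056 and 839 counts (-0.22, -0.35 to -0.08). Ptgds, the other D synthase gene, had 1 and 0 counts. Of the 5 other prostanoid receptor genes 3 had enough counts, with none past the rule and a median of 0.30. Ptgfr, the prostaglandin F receptor, had most counts, 187 and 213 (0.31, 0.02 to 0.60). Ptgir, the receptor for the product of Ptgis, had 57 and 85 (0.69, 0.19 to 1.20). Tbxa2r, the thromboxane receptor, had 22 and 10 (-1.02, -2.26 to 0.12), an interval that held 0. Ptgdr was listed with 0 counts in both libraries, which allows up to 0.102 and 0.11 CPM (3 counts in each).

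Among 5 transport and reduction genes, with a median log2 ratio of -0.02, none passed the rule. Slco2a1, the transporter that brings prostaglandins into cells for breakdown by the Hpgd product, had 2143 and 3210 counts, 72.6 and 118.0 CPM (log2 0.70, 0.62 to 0.78). Its ratio is about as far above 1 as that of Hpgd is below, so uptake and oxidation genes lay on opposite sides. Ptgr1, a reductase that acts after Hpgd, had 714 and 896 counts (0.45, 0.30 to 0.59). Zadh2, the lowest of the list, stood at -0.10 (-0.20 to 0.00).

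**Figure D4:**
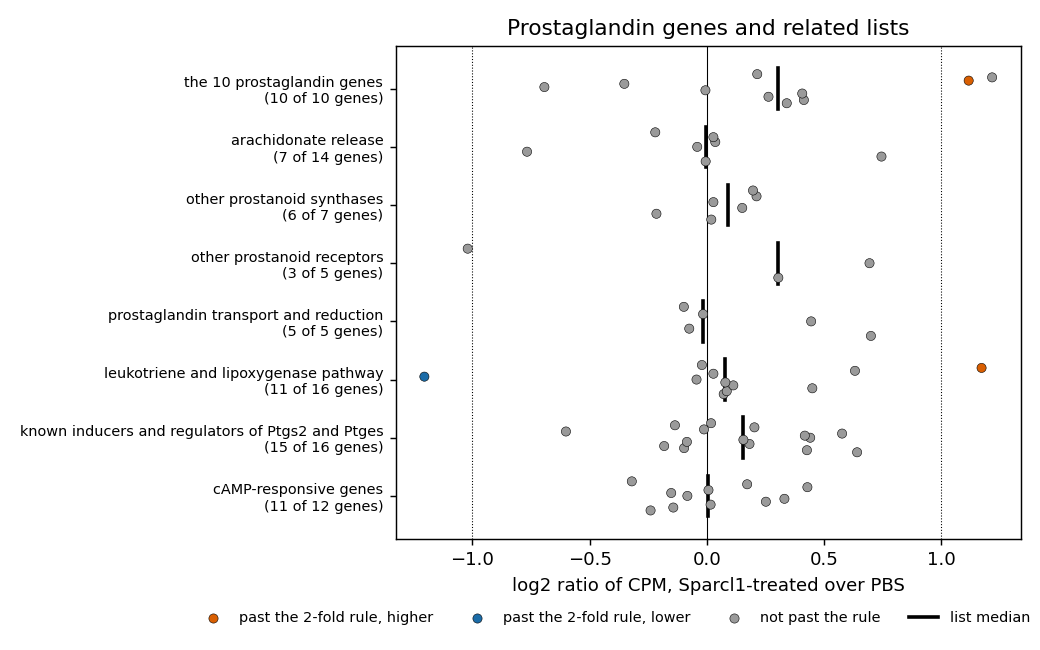
Log2 ratios of CPM, Sparcl1-treated over PBS, for genes with at least 20 summed counts in each list (points), with list medians (black bars) and dotted lines at -1 and 1. The 10 prostaglandin genes have a median of 0.30, the arachidonate release and cyclic AMP lists one of -0.01 and 0.01, and coloured points are genes past the rule.

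Upstream of Ptgs2 and Ptges, 16 known inducers and regulators were listed, and 15 had at least 20 summed counts. None passed the rule, and the median log2 ratio was 0.16. Among these 15, Il1a, an interleukin 1 gene, had the highest ratio, from 16 and 23 counts (0.64, -0.34 to 1.66). Il1b, the other classic inducer of Ptgs2, had 3 and 14 counts, too few for the rule and for this ranking. Its log2 ratio from these few counts was larger, at 2.34 (0.50 to 4.78). Egr1, a transcription factor known to activate Ptges, had the lowest ratio, with 2406 and 1463 counts (-0.60, -0.69 to -0.51), opposite in sign to Ptges. Anxa1, which encodes the phospholipase-inhibiting protein annexin A1, was the most abundant at 33653 and 31424 counts (0.02, 0.00 to 0.04). Cebpb and Cebpd encode C/EBP factors that act on Ptgs2 and were named after their values were seen, at 0.42 (0.37 to 0.47) and 0.58 (0.52 to 0.64).

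Downstream, 12 genes known to respond to cyclic AMP were listed, 11 had enough counts, none was past the rule, and their median was 0.01. Dusp1, a phosphatase gene that many signals besides cyclic AMP induce, was the highest and most abundant with 5324 and 6609 counts (log2 0.43, 0.38 to 0.48). Rgs2, a regulator of G protein signalling, was the lowest with 1049 and 775 (-0.32, -0.46 to -0.18). Of the 11 ratios 6 lay above 1 and 5 below.

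Markers of other cell types were read beside these values, since in bulk RNA fewer cells of a type and less RNA per cell cannot be told apart. The 11 macrophage markers, cells that also express Ptgs1 and Hpgds, summed to 2185 CPM in the PBS library and 2505 in the Sparcl1-treated library. Their median log2 ratio was 0.03, with 6 of 11 ratios above 1. The 9 chondrocyte markers summed to 13380 and 11720 CPM (median -0.35, 8 of 9 below 1). Fibroblast markers summed to 19110 and 15470 CPM (4 of 6 below 1, led by Col1a1), and the 5 osteoblast markers, led by Ibsp, to 207.4 and 139.2 CPM (5 of 5 below 1). Smooth muscle markers, led by Acta2, summed to 1212 and 795.3 CPM, with 4 of 4 tested ratios below 1. Endothelial markers, cells known for Ptgis, summed to 7.76 and 5.18 CPM, with Vwf their most abundant and 2 of 6 tested. Of 7 mast cell markers 4 had 0 counts in both libraries, Mcpt4, Tpsb2, Fcer1a and Ms4a2, and Kit was the most abundant with 16 and 7. Of 5 neutrophil markers S100a9, Mpo and Elane had 0 counts in both, and Ly6g had 3 and 0. S100a8 had 15 and 31 (log2 1.16, 0.23 to 2.16), the only marker of these lists past the 2-fold rule. By that rule 7.6% of the genes with 20 to 99 summed counts were higher. The part of these shifts in the values of the prostaglandin genes was not tested.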

How the data were processed

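Total RNA of 2 mouse chondrocyte cultures, 1 per group, was sequenced, and the authors deposited a table of raw counts per gene symbol. The submitters' processing notes name HTSeq and STAR, Trimmomatic and FastQC, and build mm10. Their versions, the annotation and the strand setting are not given in the sources used here. The value of an overlapping gene is not reported. Columns were matched to samples by name. Symbols were matched to GENCODE M21 (GRCm38, the same assembly) for 99.6% of genes, for coordinates and merged exon lengths.

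Library totals (29858851 and 26871933) were scaled with TMM factors of 0.988 and 1.01 from edgeR 4.0.16 (R 4.3.3). Ratios, exact Clopper-Pearson intervals and figures used Python 3.11.15, scipy 1.17.1 and matplotlib 3.10.9. A call needed 20 counts over both libraries, a 2-fold difference and a 95% interval excluding 0. A count of 0 in 1 library entered as 3 counts. Intervals treat reads as independent molecules, which PCR copies are not, and cover counting error only. With 1 library per group no test across libraries was possible. The steps were tested on simulated data. Alternatives were upper-quartile factors, library totals and size factors from DESeq2 1.42.0, other minimums, 1.5-fold and 3-fold rules, a widened interval, a prior count of 2 and transcript length.

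The genes and lists were chosen with earlier results of these data known. Of each list the text names members past the rule, the highest and lowest ratio among tested members and the most abundant member; of marker lists, the most abundant. Ptgds, Ptgdr, Ptgr1, Il1b, Cebpb, Cebpd, Alox5, Matn3, Ly6g and the markers at 0 were named after their values were seen.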

Additional observations from a re-analysis of the deposited data

How the results depend on the processing

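The count of higher genes among the 10 was 1 under library totals, DESeq2 size factors, upper-quartile factors, no count filter, a 1.5-fold rule and the widened interval, in each case Ptger2. It was 0 with at least 100 summed counts and 0 with a 3-fold rule. The count of lower genes was 0 except under the 1.5-fold rule, where it was 1, Hpgd. The median log2 ratio of the 10 genes ran from 0.26 (at least 100 summed counts) to 0.34 (library totals). Across 4 alternatives of scaling and prior count, the ratio of Ptger2 ran from 1.06 to 1.15, of Ptger3 from 1.02 to 1.25 and of Hpgd from -0.70 to -0.66, and that of Ptgis crossed 0, from -0.01 to 0.03. Library totals moved the median of all genes tested by 0.03. By transcript length Ptgs1 and Hpgd exchanged places in the PBS library. No paired analysis was possible because each group has 1 library. Depth limits Ptger1, Ptger2 and Ptger3, each with under 100 summed counts.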

Other observations

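Leukotrienes are the other main family of signals made from arachidonic acid, by lipoxygenases rather than cyclooxygenases. Of 16 genes listed for this branch 11 had at least 20 summed counts, and their median log2 ratio was 0.08. By the 2-fold rule 1 was higher and 1 was lower, beside 7.6% and 6.25% of the 1407 genes with 20 to 99 summed counts, the range in which both lie. Ltb4r2, a low-affinity receptor for leukotriene B4, was higher with 13 and 27 counts (log2 1.17, 0.17 to 2.25). Dpep1, a dipeptidase that converts leukotriene D4, was lower with 40 and 16 counts (-1.21, -2.14 to -0.34). Alox5ap, which presents arachidonic acid to the 5-lipoxygenase enzyme, was the most abundant of the list with 1731 and 1693 counts (0.09, -0.01 to 0.18). Alox5 itself, named after its values were seen, had 457 and 443 counts (0.07, -0.12 to 0.26). The first enzymes of the cyclooxygenase branch, Ptgs1 and Ptgs2, stood at 0.34 and 0.41 in the same libraries. The difference between the branches was not tested.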
